A study of Rattus norvegicus with 19 samples.

Results

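The 8 astrocyte genes Gfap, Aqp4, Slc1a2, Slc1a3, Aldh1l1, Gja1, Sox9 and Nfia were followed through total RNA sequencing of rat neuron cultures. They were chosen by symbol, from the 17715 gene symbols of the deposited table that pairs genes with transcriptionally active putative enhancers (TAPEs). This choice, and that of the marker lists used below, was made with earlier results of these data known. Every TAPE within 1 Mb of 1 of these genes was taken with it, which gave 187 of the 388605 TAPE-gene pairs and 187 of the 27538 TAPEs. The cultures came from cortex, hippocampus and striatum of Sprague-Dawley rats at embryonic day 18, were grown for 11 days in vitro and then received vehicle or KCl, which depolarizes neurons, for 1 h. The RNA was depleted of ribosomal RNA and sequenced with its strand kept. There were 19 libraries in 6 groups, with 3 vehicle and 3 KCl libraries for cortex, 3 and 3 for hippocampus, and 4 and 3 for striatum. The labels name no genotype or transgene, and they do not say which libraries came from separate cultures or litters, so the spread between libraries may be partly technical. The sample labels give 25 mM KCl and the series text 10 mM. The labels of cortex vehicle library 3 conflict, since the title names cortex and the tissue field striatum. The library was grouped by its title, and across all genes each of the 19 libraries lay closest to the other libraries of the region in its title. Cortex vehicle library 3 and cortex KCl library 1 stood apart from their groups. By a chi-square of the gene reads of 2 libraries per degree of freedom, they differed from the other libraries of their groups by 12.9 to 21.7 and by 18.3 to 21.1, against 3.34 to 11.1 for the other pairs within a group. Leaving out either changed no regional call against striatum among the 8 genes.

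Astrocytes are the glial cells that clear glutamate and potassium from around synapses, supply neurons with metabolites and couple to each other through gap junctions. Cultures of embryonic neurons usually hold some of them, because the dissected tissue contains glial progenitors that go on to divide and mature in the dish. In such cultures the transcripts of astrocyte genes are usually taken to come mainly from these accompanying cells, which was not tested here. Sox9 and Nfia are also expressed by progenitors, Nfia by some neurons, and Gfap by radial glia and reactive astrocytes. In RNA from a whole culture, fewer cells of a type cannot be told apart from less RNA per cell.

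Gene levels are given here in RPM, the reads of a gene per 1000000 reads of its library. They were recovered from the deposited correlation coefficients as described in the methods, and 1 read was worth between 0.0138 and 0.0215 RPM, since the library totals lay between 46.4 and 72.5 M reads. The length over which each gene was counted is not stated, so levels were compared between libraries rather than between genes. Summed levels below add the reads of several genes, and the part of a gene in a sum depends on that length too. Of the 17715 genes, 11421 had a mean of at least 1 RPM and were tested, and all 8 astrocyte genes were among them. The test was limma, a linear model with a spread shared across genes, on log2(RPM + 0.1), and log2 differences below are on that scale. None of the 8 gene spans overlapped another gene of the table. Microglia were close to absent from the cultures by their markers, whose summed level stayed between 0.0922 and 0.711 RPM in every library, with Aif1 and Cx3cr1 at 0 in cortex.

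The sequence in front of 3 of the genes is shown. Slc1a3 and Gja1 were the only genes with a match to a motif searched, and Gfap had the widest regional contrast. Whether the motifs bear on the regional levels was not tested. The sequences are the 250 bases before the annotated start in RefSeq assembly GRCr8, which is not the assembly of the deposited coordinates (Rn6), and 7 of the 8 genes had an entry. They are read 5′ to 3′ on the strand of the gene, from chr10:88361662-88361911 (minus strand) for Gfap, chr2:59557809-59558058 (minus strand) for Slc1a3 and chr20:36302314-36302563 (plus strand) for Gja1, and capitals mark motif matches on either strand.
Gfap: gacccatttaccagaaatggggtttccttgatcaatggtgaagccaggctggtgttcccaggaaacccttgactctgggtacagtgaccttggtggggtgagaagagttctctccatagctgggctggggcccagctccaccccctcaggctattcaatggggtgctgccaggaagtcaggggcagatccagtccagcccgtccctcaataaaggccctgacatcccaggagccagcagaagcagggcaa
Slc1a3: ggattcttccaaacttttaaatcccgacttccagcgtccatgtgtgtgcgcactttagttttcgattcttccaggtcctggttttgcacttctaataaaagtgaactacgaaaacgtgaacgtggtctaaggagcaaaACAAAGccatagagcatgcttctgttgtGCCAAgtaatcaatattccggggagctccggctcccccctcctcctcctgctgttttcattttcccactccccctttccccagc
Gja1: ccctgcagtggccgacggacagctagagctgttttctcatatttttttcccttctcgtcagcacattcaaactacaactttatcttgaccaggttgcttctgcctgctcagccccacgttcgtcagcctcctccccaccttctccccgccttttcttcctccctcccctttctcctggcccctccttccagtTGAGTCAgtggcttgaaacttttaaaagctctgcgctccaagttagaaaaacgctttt
The capitals in Slc1a3 are a SOX motif (ACAATG or ACAAAG) that begins 112 bases before the start and an NFI motif (TTGGC) that begins 84 bases before it. Those in Gja1 are an AP-1 motif (TGANTCA) that begins 58 bases before the start. The Gfap window held no match to the 5 motifs searched, the other two being the STAT motif TTCNNNGAA and the CRE motif TGACGTCA, and neither did the windows of Aqp4, Slc1a2, Aldh1l1 and Nfia. Such matches are common. In windows of 300 bases around the starts of 27457 RefSeq genes, 45.8% held an NFI motif, 28.6% a SOX motif, 8.68% a STAT motif, 7.33% an AP-1 motif and 1.91% a CRE. Only the NFI and SOX motifs of Slc1a3 and the AP-1 motif of Gja1 were found among the 7 astrocyte gene windows.

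Astrocyte genes were far lower in striatal cultures than in the others. All 8 differed between the regions at an adjusted p under 0.05, as did 85.6% of all genes tested (limma, Benjamini-Hochberg). All 8 were higher in cortex than in striatum, a call made for 34.5% of all genes, and 7 of the 8 were higher in hippocampus than in striatum, a call made for 36.6%. The exception was Aldh1l1. The median log2 difference of the 8 genes was 1.85 between cortex and striatum and 1.99 between hippocampus and striatum, where the medians over all genes tested were both -0.02. Between cortex and hippocampus the genes went different ways. Aldh1l1, Gja1 and Sox9 were higher in cortex (3 of 8, against 30.1% of all genes) and Gfap, Aqp4, Slc1a2, Slc1a3 and Nfia were higher in hippocampus (5 of 8, against 29.3%). An exact permutation test over libraries made the calls between pairs of regions too, apart from Sox9 between cortex and hippocampus (adjusted p = 0.0549).

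Gfap encodes glial fibrillary acidic protein, the intermediate filament of the astrocyte cytoskeleton. Its span in the deposited table is chr10:90990762-90999506 on the minus strand of Rn6. In the 6 hippocampal libraries it lay between 739 and 771 RPM with a median of 757. In cortex it ran from 33.2 to 51.9 with a median of 38.9, and in striatum from 2.83 to 4.26 with a median of 3.18. No region overlapped another, and the spread was widest in relative terms in cortex, where KCl library 1 and vehicle library 3, the library with the conflicting labels, were highest at 51.9 and 50.4. The mean in hippocampus (757 ± 10.8, SD, n = 6) was 18.4 times that in cortex (41.2 ± 8.24, n = 6) and 218 times that in striatum (3.47 ± 0.583, n = 7). On the log2 scale hippocampus exceeded striatum by 7.74 (SE 0.11, limma adjusted p = 5.18e-24) and cortex exceeded striatum by 3.53 (SE 0.11, adjusted p = 8.63e-18). Without cortex vehicle library 3 or without cortex KCl library 1 the latter was 3.46 each time. Only 7 of the 11421 genes tested differed more in size between hippocampus and striatum, and 22 between cortex and hippocampus.

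Aqp4 encodes aquaporin-4, the water channel of astrocyte endfeet. Its span is chr18:6765945-6782996 on the minus strand. It ranged from 106 to 143 RPM in cortex (median 116), from 153 to 178 in hippocampus (median 159.5) and from 6.12 to 7.74 in striatum (median 7.16), with no overlap between regions. Cortex and hippocampus were thus close to each other and striatum stood far below. The mean was 17.1 times higher in cortex than in striatum and 22.9 times higher in hippocampus than in striatum, with log2 differences of 4.07 (SE 0.06, limma adjusted p = 7.93e-23) and 4.50 (SE 0.06, adjusted p = 7.96e-24). The smaller difference between hippocampus and cortex, 0.43 lower in cortex on the log2 scale, also passed the test (log2 -0.43, SE 0.07, adjusted p = 8.27e-06).

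The transporters Slc1a2 (GLT-1) and Slc1a3 (GLAST), which remove glutamate from the synaptic cleft, showed a smaller regional contrast than Gfap and Aqp4. Slc1a2 had means of 89.3 ± 2.24 RPM in cortex (n = 6), 109.6 ± 2.93 in hippocampus (n = 6) and 24.7 ± 0.799 in striatum (n = 7). Slc1a3 had means of 694 ± 53.5, 764 ± 10.9 and 194 ± 7.53. The Slc1a2 libraries of the 3 regions did not overlap, whereas those of Slc1a3 overlapped between cortex (623 to 776) and hippocampus (747 to 779.6) and lay well above those of striatum (181 to 205). Hippocampus exceeded striatum by a log2 difference of 2.15 (SE 0.03, limma adjusted p = 2.96e-24) for Slc1a2 and of 1.98 (SE 0.04, adjusted p = 1.69e-21) for Slc1a3. Slc1a3 was lower in cortex than in hippocampus by a small margin that passed the test (log2 -0.14, SE 0.04, adjusted p = 0.00369). The deposited span of Slc1a2, chr3:92640752-92665644, covers 24.9 kb, whereas the RefSeq gene in GRCr8 covers 130.3 kb, so reads from the rest of the gene may be missing from its level. The span of Slc1a3 is chr2:57860834-57935363 on the minus strand.

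Aldh1l1, a folate enzyme used as a general astrocyte marker, followed another pattern. Its span is chr4:123516788-123557501 on the minus strand. It lay between 20.4 and 23.3 RPM in cortex (median 21.1), between 6.47 and 11.4 in hippocampus (median 8.83) and between 6.91 and 11.4 in striatum (median 9.11). Cortex stood above both other regions without overlap, and hippocampus and striatum covered the same range. The cortical mean of 21.6 ± 1.42 was 2.44 times the hippocampal and 2.29 times the striatal mean (log2 1.30, SE 0.12, adjusted p = 2.96e-09, and log2 1.21, SE 0.11, adjusted p = 3.15e-09). Between hippocampus and striatum the log2 difference was -0.09 (SE 0.11, adjusted p = 0.475).

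Gja1 encodes connexin 43, the main gap junction protein of astrocytes, and is spanned by chr20:37876650-37889089. It ran from 150.4 to 162 RPM in cortex (median 156), from 108 to 126 in hippocampus (median 112) and from 31.3 to 36.4 in striatum (median 34.8). The 3 regions were separate and in the order cortex, hippocampus, striatum. The log2 difference between cortex and hippocampus was 0.45 (SE 0.04, limma adjusted p = 6.15e-09), and that between cortex and striatum was 2.17 (SE 0.04, adjusted p = 1.59e-21).

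The transcription factors Sox9 and Nfia drive the switch of neural progenitors to making glia. Sox9, at chr10:101288489-101293379, had means of 87.4 ± 10.5 RPM in cortex, 67.4 ± 14 in hippocampus and 25.3 ± 1.49 in striatum. Its cortical and hippocampal libraries overlapped, and both stood above striatum, by log2 1.78 (SE 0.10, limma adjusted p = 5.37e-13) and 1.39 (SE 0.10, adjusted p = 3.20e-11). Nfia, at chr5:116420690-116751416, had means of 208 ± 13.4, 284 ± 25.1 and 70.9 ± 4.36. The Nfia libraries of the 3 regions did not overlap, and hippocampus was 4 times and cortex 2.93 times as high as striatum. The deposited Nfia span covers 331 kb and the RefSeq gene in GRCr8 538 kb, which bears on the TAPEs upstream of it.

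**Figure D1:**
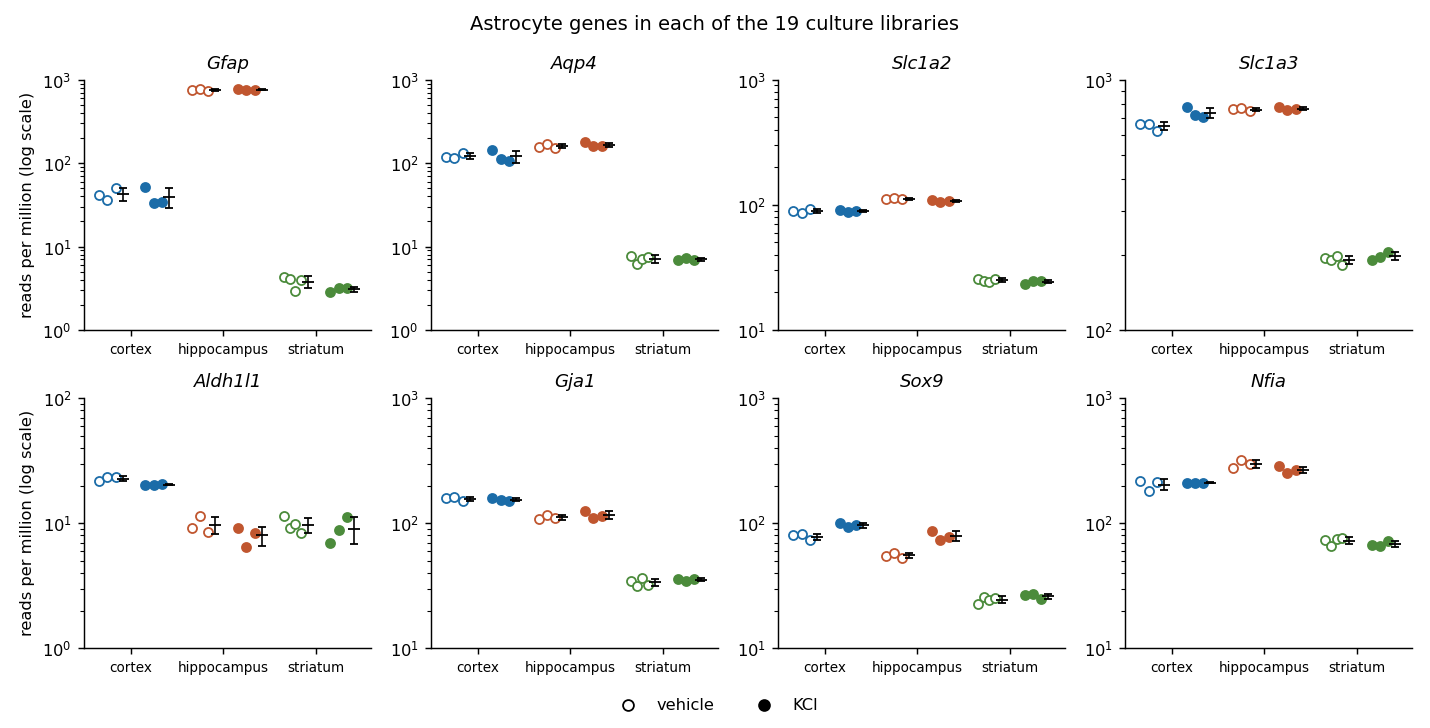
Level of each of the 8 astrocyte genes in RPM (log axis, with its own range for each gene) in the 19 libraries, by region. Open circles are vehicle libraries, filled circles KCl libraries, and the black marks beside them the mean ± SD of the group. Hippocampal Gfap sits between 739 and 771 and striatal Gfap between 2.83 and 4.26, Aldh1l1 is high in cortex only, and the KCl circles of Sox9 lie above the vehicle circles in cortex and hippocampus.

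Of the 8 genes, 7 thus had their lowest level in striatum, and Aldh1l1 did not. Across the 19 libraries, the Pearson r of the 28 pairs of astrocyte genes ran from -0.44 to 0.99 with a median of 0.78. Within a region the median fell to 0.09 over the 6 cortical libraries, 0.44 over the 6 hippocampal ones and 0.13 over the 7 striatal ones, so most of the likeness lay between regions. With the mean of the 8 standardized profiles, Slc1a3 had an r of 0.993, Slc1a2 of 0.981, Aqp4 of 0.975, Nfia of 0.944, Gja1 of 0.931 and Sox9 of 0.901, and Gfap and Aldh1l1 stood apart at 0.59 and 0.44. The genes of the whole table most like that mean profile over the 19 libraries were Lingo1, Tril and Jam2, each with an r of 0.996. Lingo1, a neuronal membrane protein, had means of 161 ± 8.94, 163 ± 7.25 and 48.6 ± 2.2 RPM in cortex, hippocampus and striatum. The genes most like Gfap were Hpca, Gsn and Prox1, each with an r of 0.999. Prox1, a transcription factor of dentate granule neurons, averaged 159 ± 2.27 RPM in hippocampus, 12.9 ± 5.2 in cortex and 5.17 ± 2.4 in striatum. Nfib, a close relative of Nfia, was the gene most like Nfia (r = 0.994). Those most like Slc1a2 were Pcsk2 (r = 0.999), Hspa12a (0.998) and Ptk2b (0.997). These coefficients mostly describe the regions, because libraries of a region share that region's cells.

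Other astrocyte genes moved with the 8 in the comparisons with striatum. Of 28 further astrocyte genes listed, 24 could be tested. Between cortex and striatum, 22 of the 24 were higher in cortex and Id4 and Sox2 were higher in striatum (2 of 24, against 37% of all genes), with a median log2 difference of 1.49. Between hippocampus and striatum, 21 were higher in hippocampus and Id4, Sox2 and Hes5 were higher in striatum (3 of 24, against 40% of all genes), with a median of 1.11. Sparcl1, a synapse-promoting protein secreted by astrocytes, averaged 309.7 ± 9.86 RPM in cortex, 609.8 ± 22.4 in hippocampus and 42.3 ± 2.38 in striatum. Apoe, the lipid carrier, averaged 494 ± 30.3, 441 ± 20.4 and 109 ± 5.92. Id4 and Sox2, which are also expressed by progenitors, were the members of the list that were higher in striatum in both comparisons, by 1.54 and 0.10 over cortex (log2 -1.54 and -0.10 for cortex against striatum, limma adjusted p = 7.94e-16 and 0.00869). Gjb6, which encodes connexin 30, another gap junction protein of astrocytes, was below the minimum and not tested, and went the other way, at 0.0355 ± 0.0261 RPM in cortex, 0.0414 ± 0.0469 in hippocampus and 1.06 ± 0.133 in striatum. Between cortex and hippocampus 13 of the 24 were higher in cortex (30.1% of all genes were) and 9 in hippocampus (29.3%). Glul, glutamine synthetase, was among the former at 664 ± 20.1 against 310.3 ± 23.2 RPM. Of the 6 tested genes of radial glia and reactive astrocytes, 4 were higher in hippocampus than in cortex (29.3% of all genes were) and none lower (30.1%). Vim, vimentin, averaged 63.6 ± 3.76 in cortex, 200.4 ± 18.2 in hippocampus and 104 ± 6.1 in striatum, so unlike Gfap it was lowest in cortex.

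Markers of other cells moved with the regions too. The summed level of the 8 astrocyte genes ran from 1352 to 1553 RPM in cortex, from 2215 to 2346 in hippocampus and from 358 to 385 in striatum. Most of the gap between cortex and hippocampus was Gfap, with means of 41.2 and 757 RPM. The 25 further astrocyte genes with reads summed to 3649 to 3880 in cortex, 3455 to 3750.1 in hippocampus and 1184 to 1244 in striatum. The summed level of 15 neuron genes ran from 5752 to 6154 in cortex, 6454 to 6796 in hippocampus and 7532 to 8324 in striatum. The neuron genes did not move as 1 group. Gad1 and Gad2, which make the transmitter GABA, averaged 1155 and 1532 RPM in striatum against 114 and 127 in cortex, whereas the neuronal tubulin Tubb3 averaged 951 in cortex, 694 in hippocampus and 453 in striatum. The 10 genes of the oligodendrocyte lineage summed to 542 to 598, 436 to 537 and 208 to 251, and 7 of the 9 tested were higher in cortex than in striatum (34.5% of all genes were). The 5 genes of dividing cells, all of them higher in cortex (34.5% of all genes) and in hippocampus (36.6%) than in striatum, summed to 114 to 125, 108 to 121 and 75 to 92.7. The 4 measured genes of pericytes and fibroblasts summed to 23.6 to 28, 18.5 to 20.8 and 6.14 to 7.69, and the 5 measured endothelial genes to 0.607 to 0.962, 6.4 to 8.35 and 0.277 to 0.845. The hippocampal value was mostly that of Kdr and Flt1, receptors of vascular endothelial growth factor, at 6.35 ± 0.753 and 1.22 ± 0.156 RPM, while the defining genes Cdh5 and Cldn5 stood at 0 and 0.0119 there, and Tek at 0.219, against 0.284 in cortex and 0.38 in striatum. The part of these cells in the regional levels of the astrocyte genes was not tested.

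The response to KCl was small for most of the 8 genes. After 1 h, 1 of 8 passed the test in cortex (5.49% of all genes did), 2 of 8 in hippocampus (13.9%) and 0 of 8 in striatum (29.2%). In striatum no gene of the 8 reached even an unadjusted p of 0.05 with limma, which 39.6% of all genes did. With the effect averaged over the regions, 2 of 8 passed (35.4% of all genes). The median absolute log2 change of the 8 genes came to 0.09, 0.06 and 0.08 for cortex, hippocampus and striatum, close to the 0.09, 0.09 and 0.10 over all genes tested. In the same libraries all 8 activity-induced genes listed, which are immediate early genes and their like, rose in each region with median log2 changes of 4.08, 3.35 and 3.19. Which cells of the cultures carried this rise was not tested.

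Sox9 was the astrocyte gene that responded most. In cortex it stood at 80, 81.6 and 73.6 RPM in the vehicle libraries and at 100.4, 92.6 and 96.3 after KCl. In hippocampus the vehicle libraries held 54.8, 58.3 and 53.1 and the KCl libraries 87.2, 73 and 78.1. All KCl libraries lay above all vehicle libraries in both regions. The log2 change was 0.30 in cortex (SE 0.06, limma adjusted p = 0.00991) and 0.52 in hippocampus (SE 0.06, adjusted p = 6.91e-06), which is 1.23-fold and 1.43-fold. In striatum the vehicle libraries held 22.6, 25.9, 24.4 and 25.4 and the KCl libraries 26.6, 27.1 and 24.9. These groups overlapped, and the log2 change of 0.09 (SE 0.06, adjusted p = 0.252) did not pass, although it did with each library centred on its median gene (0.16, adjusted p = 0.0337). The KCl effect on Sox9 differed between the regions (limma, adjusted p = 0.00966), as it did for 4.26% of all genes, and Sox9 was the only 1 of the 8 for which it did. Without cortex vehicle library 3 the cortical change was 0.25 (adjusted p = 0.0308) and without cortex KCl library 1 it was 0.27 (0.0194). Without the filter on low genes the calls in cortex and hippocampus were lost (adjusted p = 0.0785 and 0.0537).

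The other calls were weaker. Nfia in hippocampus stood at 278, 322 and 299.7 RPM with vehicle and at 285, 251 and 266 with KCl. The groups overlapped, and the log2 change of -0.17 (SE 0.05, limma adjusted p = 0.0334) lost its call in 8 of 12 alternatives. Slc1a3 rose on average over the regions by a log2 of 0.08 (SE 0.02, adjusted p = 0.00907), but an exact permutation test gave an adjusted p of 0.0543. Its largest change was in cortex, from 666, 666 and 623 to 776, 722 and 709 RPM, where the groups did not overlap and the log2 change of 0.17 (SE 0.05) had an adjusted p of 0.09. It passed in a fit of all 6 groups (adjusted p = 0.00454), and the change in striatum passed with median centring (0.12, adjusted p = 0.00823). Gfap did not pass in any region, with log2 changes of -0.12 in cortex, 0.02 in hippocampus and -0.29 in striatum (SE 0.16, 0.03 and 0.14). Averaged over regions its change passed without cortex KCl library 1 (-0.20, limma adjusted p = 0.00841) and not with it. Aqp4, Slc1a2 and Gja1 changed by at most 0.08 in size in any region, and none of these changes passed. Aldh1l1 was lower after KCl by 0.16, 0.28 and 0.12 (log2 -0.16, -0.28 and -0.12 in cortex, hippocampus and striatum), without passing the test.

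**Figure D2:**
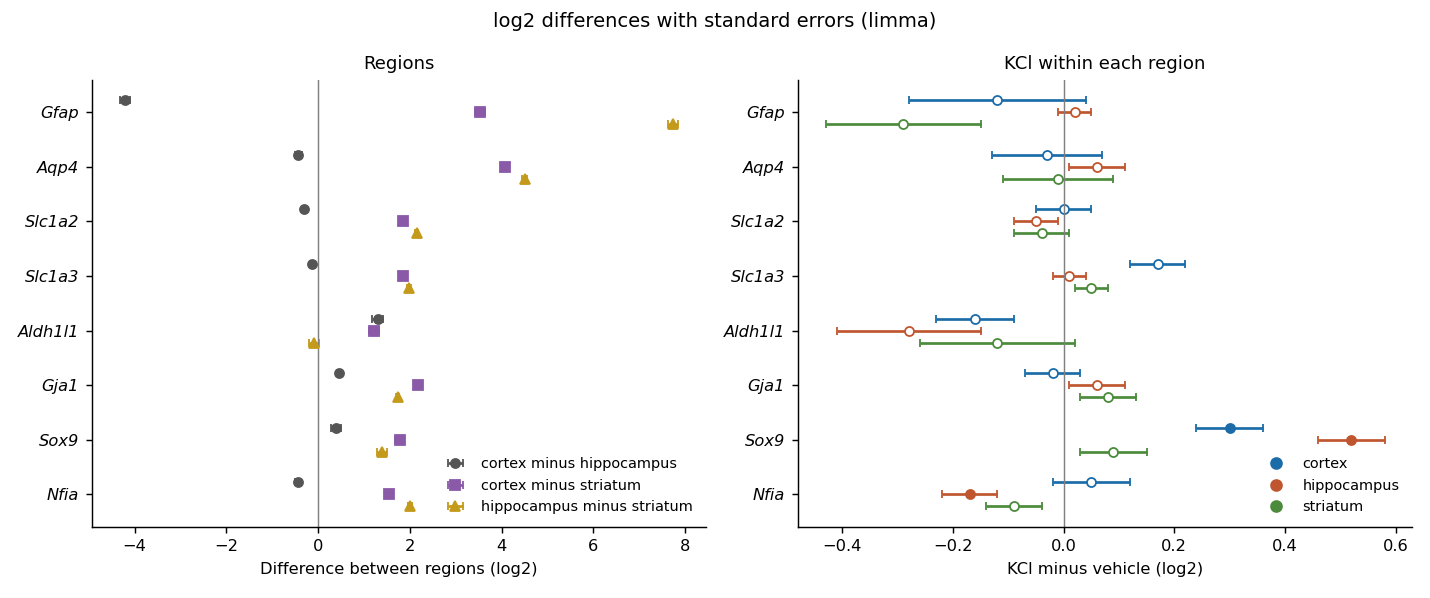
Log2 differences of the 8 astrocyte genes with their standard errors, between regions (left) and between KCl and vehicle within each region (right), from limma on log2(RPM + 0.1). Filled marks on the right have an adjusted p under 0.05. The regional differences reach 7.74 for Gfap, whereas the largest change with KCl is 0.52 for Sox9 in hippocampus.

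TAPEs are intergenic stretches of open chromatin that are themselves transcribed, and their RNA was counted in CPKM, the reads per kilobase of the TAPE and per 1000000 mapped reads. The 187 TAPEs of the astrocyte genes were sparsely transcribed. Their reads summed over the 19 libraries had a median of 14, and 22 of them had a mean of at least 0.05 CPKM and were tested with limma on log2(CPKM + 0.05), of 1870 in the series. The added 0.05 understates the changes of sparse TAPEs. The authors sequenced read pairs, and the counts of sparse TAPEs were often even. At chr10:90188422-90190566, for example, the striatal KCl libraries held 18, 14 and 26 reads. Read counts given here may therefore include both ends of a fragment, which was not tested, and independent fragments may be fewer. Gfap had 29 TAPEs, of which 7 were tested. Aldh1l1 had 25 (6 tested), Nfia 33 (5), Sox9 18 (3) and Aqp4 22 (1). None of the 20 of Slc1a2, 23 of Slc1a3 and 17 of Gja1 reached the minimum, although a TAPE of Slc1a3 at chr2:57855474-57857517 lay just under it. For 52 of the 187 pairs the astrocyte gene was the gene nearest to the TAPE. A TAPE passed the minimum more easily if it was high in 1 region, so the counts below describe these 22 only.

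Of the 22 TAPEs, 16 differed between the regions (48.8% of all TAPEs tested did). They were 4 of 7 for Gfap, 4 of 6 for Aldh1l1, all 3 for Sox9 and all 5 for Nfia, and the TAPE of Aqp4 was not among them. Between cortex and hippocampus 3 passed (14.9% of all TAPEs). Between cortex and striatum 13 passed (33.3%), of which 9 were higher in cortex, against 311 of the 622 called among all TAPEs. Between hippocampus and striatum 14 passed (43%), of which 7 were higher in hippocampus, against 316 of the 804 called among all TAPEs. The median log2 difference of the 22 was 0.12, 0.38 and 0.11 in these comparisons, where the medians over all TAPEs tested were 0.12, -0.03 and -0.17.

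All 5 tested TAPEs of Nfia lie upstream of its deposited start and were lowest in striatum, as the gene is. Because the RefSeq gene is longer than the deposited span, RNA of these TAPEs cannot be told apart here from RNA of Nfia itself. The TAPE with most RNA, at chr5:116218521-116222010 and 200.4 kb from the gene start, held 0.306 to 0.464 CPKM in cortex, 0.263 to 0.467 in hippocampus and 0.052 to 0.146 in striatum. Striatum did not overlap the other regions, which overlapped each other. The means were 0.389 ± 0.0533 (n = 6), 0.353 ± 0.0776 (n = 6) and 0.106 ± 0.0314 (n = 7), and cortex exceeded striatum by log2 1.51 (SE 0.18, limma adjusted p = 9.25e-08). Another 4 lie 17.5, 25.1, 31.3 and 36.9 kb from the start. That at 31.3 kb, chr5:116388076-116390652, averaged 0.175 ± 0.0649, 0.222 ± 0.0826 and 0.0515 ± 0.0256 CPKM, and that at 36.9 kb, chr5:116382754-116384812, averaged 0.115 ± 0.0256, 0.0994 ± 0.0498 and 0.0207 ± 0.014. The nearest, chr5:116402220-116404063, was higher in hippocampus than in striatum (log2 1.01, SE 0.24, adjusted p = 9.29e-04) and did not pass between cortex and striatum (0.57, SE 0.24, adjusted p = 0.0648).

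**Figure D3:**
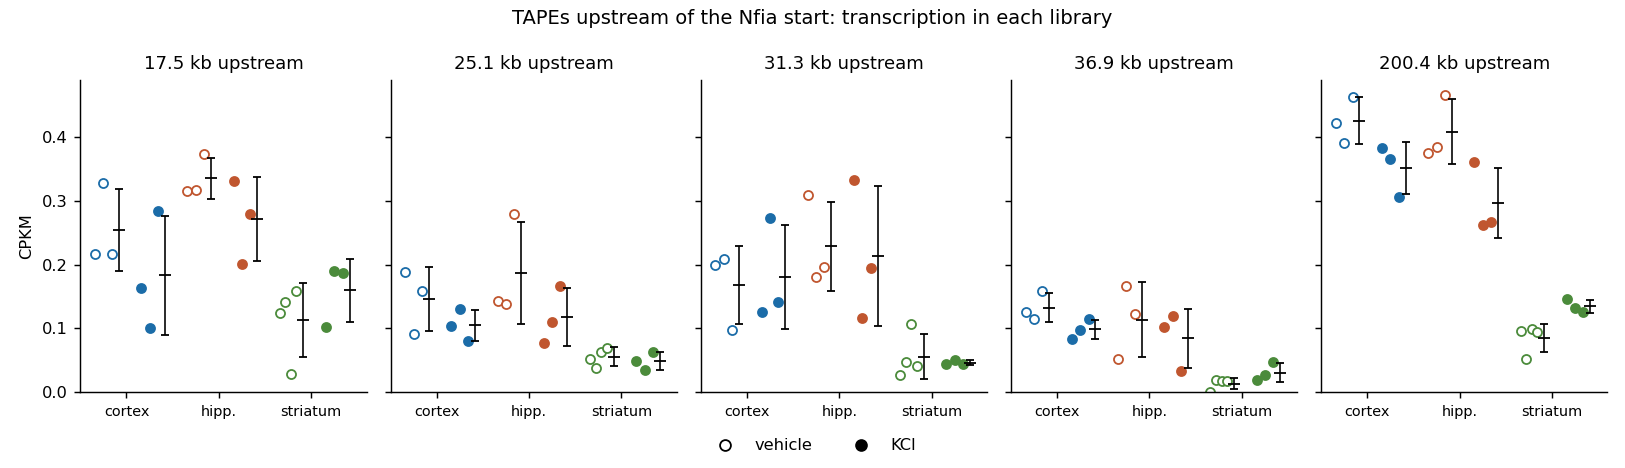
RNA of the 5 tested TAPEs upstream of Nfia in CPKM (linear axis from 0) in the 19 libraries, by region and with the distance from the gene start in each panel. Open circles are vehicle libraries, filled circles KCl libraries, and black marks the mean ± SD of the group. In each panel the striatal libraries have the lowest mean, for example 0.106 against 0.389 in cortex at 200.4 kb.

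Around Sox9 the TAPEs differed in direction. The TAPE at chr10:101541610-101543703, 254 kb downstream, held 0.195 to 0.419 CPKM in cortex, 0.0507 to 0.192 in hippocampus and 0.0336 to 0.146 in striatum. Cortex stood above both other regions, by log2 1.19 over hippocampus (SE 0.24, limma adjusted p = 5.54e-04) and 1.53 over striatum (SE 0.23, adjusted p = 4.42e-06). The TAPE with most RNA there, chr10:101538462-101539656 at 251 kb downstream, averaged 0.285 ± 0.156, 0.134 ± 0.0924 and 0.0875 ± 0.051 in cortex, hippocampus and striatum. The TAPE at chr10:101055157-101056632, 233 kb upstream, was highest in striatum at a mean of 0.145 ± 0.0561, against 0.0615 ± 0.0548 in cortex and 0.0196 ± 0.0312 in hippocampus. Around Gfap, a TAPE 295 kb downstream at chr10:90703284-90705138 shared the order of the gene, with means of 0.131 ± 0.0479 in hippocampus, 0.0681 ± 0.0389 in cortex and 0.0254 ± 0.0214 in striatum, which is a far smaller contrast than that of Gfap. It lies nearest to Adam11. A TAPE 227 kb upstream of Gfap, chr10:91225404-91227626, was highest in striatum (0.214 ± 0.102). The TAPE nearest to Gfap, chr10:91002562-91004378 at 3.96 kb from its start, held 5 reads over all 19 libraries.

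Of the 6 tested Aldh1l1 TAPEs, 5 had their lowest mean in hippocampus and 1 in cortex. Aldh1l1 itself was higher in cortex and did not differ detectably between hippocampus and striatum (limma log2 -0.09, SE 0.11, adjusted p = 0.475). Its lowest region is therefore not settled and cannot be matched to that of the TAPEs. The 5 TAPEs lie near each other, 568 to 649.8 kb downstream, and whether so many would be lowest in hippocampus among all TAPEs was not tested. At chr4:122987121-122990909, 568 kb downstream and nearest to Wnt7a, the means were 0.27 ± 0.0532 CPKM in cortex, 0.11 ± 0.0287 in hippocampus and 0.2 ± 0.0563 in striatum. Cortex was higher than hippocampus by log2 1.01 (SE 0.19, limma adjusted p = 2.92e-04) and did not pass against striatum (0.37, SE 0.19, adjusted p = 0.128). The sixth, chr4:123090814-123092940 at 466 kb downstream, went against the gene, with means of 0.238 ± 0.0567 in striatum, 0.0714 ± 0.0231 in hippocampus and 0.0621 ± 0.0379 in cortex, and it had an r of -0.42 with Aldh1l1. The nearest TAPE, chr4:123717230-123719333 at 161 kb, was below the minimum at a mean of 0.024. The tested TAPE of Aqp4, chr18:6573625-6577787 and 207 kb from the gene start, had means of 0.124 ± 0.0347, 0.129 ± 0.0103 and 0.151 ± 0.0558 and did not differ detectably between regions (adjusted p = 0.749), although Aqp4 itself differed between regions by up to 22.9 times. The TAPE nearest to Aqp4, 26.5 kb from its start at chr18:6808613-6810449, was too sparse to test and held reads in all 6 hippocampal libraries, in 1 cortical library and in no striatal library. The TAPEs nearest to Slc1a2 (chr3:92691424-92693277 at 51.6 kb) and Gja1 (chr20:37872237-37873647 at 3.71 kb) averaged 0.0125 and 0.0207 CPKM over all libraries, and those with most RNA (chr3:92888069-92889935 at 248 kb and chr20:38055288-38056811 at 179 kb) averaged 0.0203 and 0.0326. The nearest Slc1a2 TAPE lies downstream of the gene start. The deposited span covers 24.9 kb and the RefSeq gene in GRCr8 130.3 kb, and whether this TAPE lies within the gene was not tested.

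The table of the authors also gives the Pearson r of each TAPE with each gene over the 19 libraries. Of the 187 pairs, 29 had an r above 0.5 (15.5%, against 5.3% of all pairs of the series). Of the 22 tested TAPEs 10 did (45.5%, against 11.3% of all pairs of tested TAPEs). These 10 include the 5 tested TAPEs of Nfia, whose RNA cannot be told apart here from RNA of Nfia itself. Nfia had 13 of the 29 and Sox9 had 7, and Slc1a2 had none. Among the 13 of Nfia, chr5:116327755-116329068 and chr5:116328135-116329591 overlap and so share reads. The 5 tested TAPEs of Nfia had an r of 0.86 at 200.4 kb and of 0.75, 0.75, 0.79 and 0.75 at 17.5, 25.1, 31.3 and 36.9 kb, and for the nearest 4 Nfia was the gene with the highest r among those paired with the TAPE. The Gfap TAPE at 295 kb had an r of 0.74 with Gfap, which ranked 9 among its 50 genes, and the Aldh1l1 TAPE at 568 kb an r of 0.70, which ranked 3 among 21. The Sox9 TAPE highest in striatum had an r of -0.63. Of the 29 pairs, 19 kept an r above 0.5 with each library left out in turn, 10 of them of Nfia, and 23 had a rank correlation above 0.5 as well. Within cortex, hippocampus and striatum alone, 34, 30 and 29 of the 187 pairs were above 0.5 (18.2%, 16% and 15.5%, against 14.2%, 14% and 11.5% of all pairs of the series), and 1 pair was above it in all 3 regions. The coefficients describe libraries that share region, depth and culture.

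**Figure D4:**
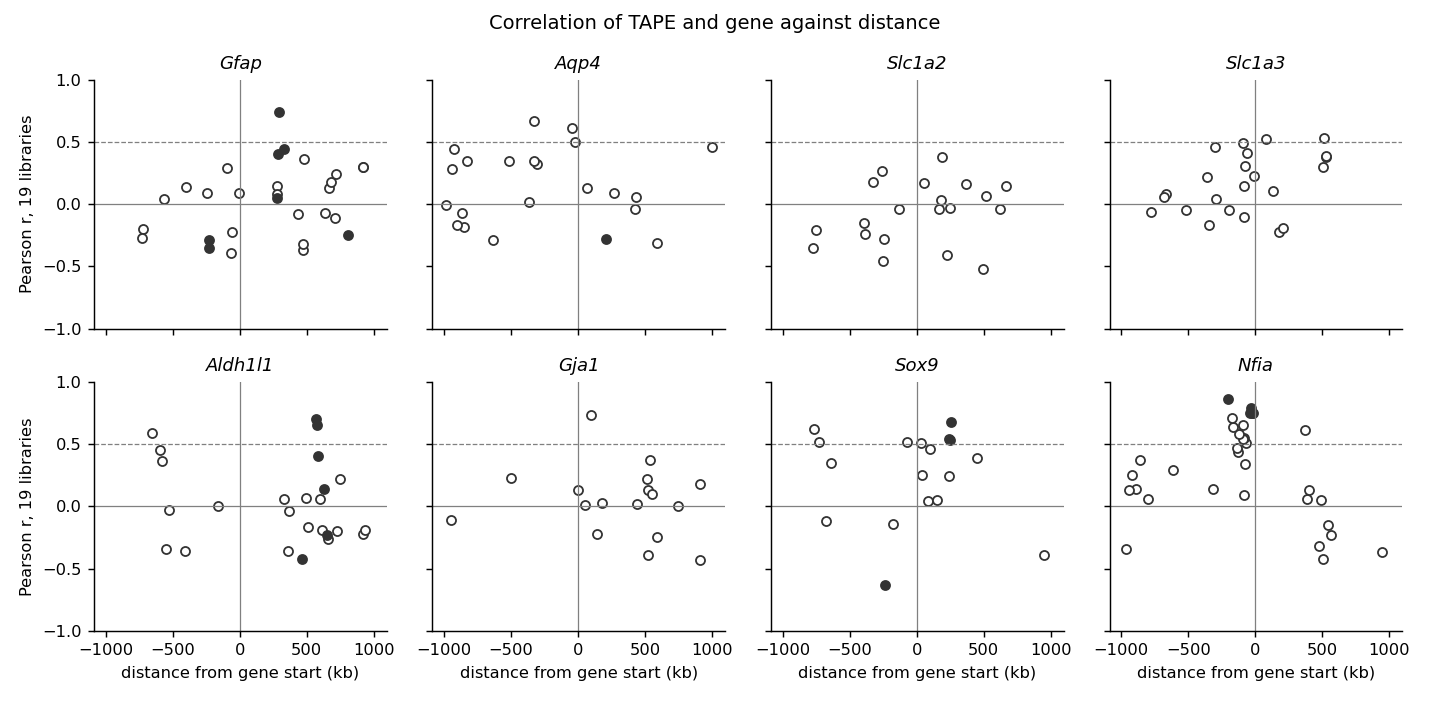
Deposited Pearson r over the 19 libraries between each astrocyte gene and its 187 TAPEs, by distance of the TAPE from the gene start in kb (negative values are upstream). Filled marks are the 22 TAPEs with a mean of at least 0.05 CPKM and the dashed line is an r of 0.5. Nfia has 13 TAPEs above the line, including 0.86 at 200.4 kb upstream, and Slc1a2 none.

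Few of these TAPEs passed the test for KCl, as few of all TAPEs tested did. None of the 22 passed in cortex (0.321% of all TAPEs did) or in hippocampus (0.0535%), and 1 passed in striatum (1.23%). An unadjusted limma p under 0.05 was reached by 3 in cortex (10.4% of all TAPEs), 1 in hippocampus (13.3%) and 2 in striatum (15.1%). None of the 22 had a KCl effect that differed between the regions (0.0535% of all TAPEs), and 1 reached an unadjusted p under 0.05 for it (8.24%). Averaged over the regions 2 passed (6.9%). The median log2 of all TAPEs tested moved by -0.07, -0.17 and -0.14 with KCl in cortex, hippocampus and striatum, so the changes below are read against that shift. The TAPE at chr10:90188422-90190566 lies 810 kb from Gfap, has LOC303566 as its nearest gene and had its highest r with Arl4d (0.86). In striatum it held 0.0328, 0.0376, 0 and 0.0322 CPKM in the vehicle libraries and 0.158, 0.12 and 0.232 after KCl. The groups were separate, and the summed reads rose from 12 to 58, 6.74 times at equal depth. The log2 change of 1.54 (SE 0.33, limma adjusted p = 0.0387) lost its call when any 1 striatal library was left out. In cortex the vehicle libraries held 0 reads and the KCl libraries 34, at least 13.2 times higher against a floor of 3 reads over the group. In hippocampus they held 7 and 20 reads. Such counts may include both ends of a fragment, so fewer fragments may lie behind them and behind the floor. With the regions averaged the log2 change was 1.18 (SE 0.18, adjusted p = 1.24e-04) with 0.05 CPKM added to every value, and ran from 0.48 to 3.13 over the alternatives. Gfap itself did not pass for KCl in any region. The Gfap TAPE at 295 kb was lower after KCl on average (log2 -0.60, SE 0.18, adjusted p = 0.0346), with 38 against 12 reads in cortex, 53 against 30 in hippocampus and 14 against 4 in striatum, and lost its call in 13 of 23 alternatives. None of the tested TAPEs of Sox9 passed for KCl, and the Sox9 TAPE 254 kb downstream had an average log2 change of 0.08 (SE 0.19).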

How the data were processed

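Total RNA was sequenced from 19 libraries of cultured rat neurons, and the groups were taken from the sample titles. Per the labels, reads were trimmed (Trim Galore 0.4.5) and aligned to rn6 with SAMtools 1.9 and FastQC also named. The authors deposited 1 table of TAPE-gene pairs. The authors counted the reads of each TAPE in each library and deposited them as RPKM (named CPKM). The authors also deposited a score for each pair, the Pearson correlation of TAPE and gene over all libraries and within each region, which was used here and is credited to them, and the distance between TAPE and gene. No other column of library values was left unused.

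From these values the total reads of each library were recovered, because every TAPE value is a whole number of reads over its length and that total (within 0.01 of a whole number). Gene profiles were then solved from the correlations of each gene with its TAPEs, and whole reads were fitted to them. This gave reads for 16795 of the 17715 genes, 69% to 72.4% of the reads of each library. What the authors counted for a gene (exons or span, strand) is not given in the sources used here. For this reason the gene test is limma on log2 values rather than a count model on deposited counts.

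The main fits used limma 3.58.1 in R 4.3.3 with Benjamini-Hochberg adjustment over all features tested, a fit of the 3 regions with vehicle and KCl together for the regional comparisons, a fit of the 6 groups for KCl effects averaged over or differing between regions, and a fit of each region's libraries for KCl within it. Genes needed a mean of 1 RPM and TAPEs a mean of 0.05 CPKM. The rule for naming took all 8 genes and, for each, the TAPE that is nearest, highest in RNA, highest in r among those tested, lowest in p for region or called for KCl. Further TAPEs of Nfia and Sox9 and single genes of the marker lists were named after their values were seen. The members and the lists were chosen with earlier results of these data known. Alternatives were other pseudocounts, no filter, centring on the median, voom on reads, exact permutation, treatment as a covariate, vehicle libraries only, 1 fit of the 6 groups, a replicate block and leaving out each library. Scripts were tested on simulated data.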

Additional observations from a re-analysis of the deposited data

Results flagged for a closer look

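The effect of KCl on Sox9 differed between the 3 regions (limma, adjusted p = 0.00966), with a log2 change of 0.30 in cortex, 0.52 in hippocampus and 0.09 in striatum.

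In the striatal vehicle group, the only group of 4 libraries, 28 sets of values of the genes and the TAPEs named by rule were examined for a library far from the other 3, and chance alone marks about 1 in 20 such sets where values vary continuously, a rate that does not hold for sparse reads. No gene was marked and 5 TAPEs were. At chr10:90188422-90190566, the TAPE 810 kb from Gfap that rose with KCl, 1 vehicle library held 0 CPKM and the others 0.0322 to 0.0376. At chr2:57940516-57944205, the TAPE nearest to Slc1a3, 1 library held 0.00935 CPKM (2 reads) and the others 0, which marks a set whatever the value. At chr4:122987121-122990909, 568 kb from Aldh1l1, 1 library held 0.319 CPKM. At chr10:101318114-101320898, the TAPE nearest to Sox9, 1 library held 0.0126 CPKM (2 reads) and the others 0, with the same result. At chr5:116218521-116222010, 200.4 kb upstream of Nfia, 1 library held 0.052 CPKM and the others 0.094 to 0.0989.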

How the results depend on the processing

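Over 64 single results and 1190 alternatives, 1122 kept their direction and their side of the threshold, 31 lost their call, 13 gained it and 24 changed sign. For the genes, the count of regional calls against striatum stayed at 8 and 7 in every alternative, and that between cortex and hippocampus lay between 7 and 8. The KCl counts moved, and the cause was not tested. Genes called in cortex came to 0 without the filter and 2 in a fit of all 6 groups. In hippocampus they came to 0 without the filter and 1 with median centring, with a fit of all 6 groups or with the replicate number as a block, and to between 1 and 2 with a library left out (1 without vehicle library 2 or 3 or KCl library 2 or 3). In striatum they came to 3 with median centring and to between 0 and 1 with a library left out (1 without vehicle library 4 or 6). Averaged over regions they came to 1 by the exact permutation test and to between 2 and 3 with a library left out.

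TAPEs called for KCl in cortex came to 1 with median centring and 1 with a fit of all 6 groups, and in striatum to 0 without the filter and to 0 without any 1 of the 7 striatal libraries (lowest 0, highest 0). Averaged over regions they came to 1 with median centring or with voom on reads and to between 1 and 3 with a library left out. They fell to 1 without cortex vehicle 3, cortex KCl 1 or 2, hippocampus vehicle 2, hippocampus KCl 2 or 3, or striatum vehicle 4 or 8. Without the filter, TAPEs that differed between regions came to 31 and those between cortex and hippocampus to 6. Pairs with an r above 0.5 came to 10 among TAPEs with a mean of at least 0.05 CPKM and to between 24 and 34 with a library left out.

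The changes of sign were all in KCl changes that passed in neither fit. With a library left out, the log2 change in cortex reached 0.00 for Gfap (range -0.33 to 0.00), 0.01, 0.03 and 0.06 for Aqp4 (range -0.16 to 0.06), -0.02 to 0.00 for Slc1a2 (highest 0.03) and -0.04 for Nfia (highest 0.10). In striatum it reached 0.01 to 0.03 for Aqp4 (lowest -0.08) and 0.06 for Aldh1l1 (lowest -0.29), and averaged over regions between -0.04 and 0.00 for Aqp4 (-0.04, -0.02, -0.01, 0.00, with 0.03 the highest of all). Median centring gave 0.06 for Aqp4 and 0.03 for Slc1a2 in striatum and 0.01 for Slc1a2 averaged over regions, and voom gave 0.00 for Aqp4 averaged over regions.

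Same-numbered vehicle and KCl libraries did not deviate together (r between -0.20 and 0.11 for genes and between -0.04 and 0.01 for TAPEs), so the numbers were not taken to pair the libraries. The highest r for genes, 0.269, was between cortex vehicle 3 and cortex KCl 1, which carry different numbers and stood apart from their groups. The replicate block changed the count of calls for genes in hippocampus only.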

Other observations

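Most of the further astrocyte genes did not pass the test for KCl. Of the 24 tested, 2 passed in cortex (5.49% of all genes did), 1 in hippocampus (13.9%) and 3 in striatum (29.2%) by limma with Benjamini-Hochberg adjustment. F3, which encodes tissue factor, the starter of the extrinsic clotting cascade, was lower after KCl in cortex (log2 -0.38, SE 0.08, adjusted p = 0.0167) and in hippocampus (-0.31, SE 0.07, adjusted p = 0.00886) and higher in striatum (0.80, SE 0.09, adjusted p = 6.01e-06). It was the only gene of that list whose KCl effect differed between the regions (adjusted p = 1.13e-07). Hes5, an effector of Notch signalling, was lower after KCl in cortex (log2 -0.71, SE 0.12, adjusted p = 0.00378). S1pr1, a receptor for sphingosine 1-phosphate, was higher after KCl in striatum (0.29, SE 0.06, adjusted p = 0.00164), and Nfib was lower there (-0.13, SE 0.04, adjusted p = 0.02).

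Among the 6 tested genes of radial glia and reactive astrocytes, Hes1, another Notch effector, rose in cortex (log2 0.82, SE 0.10, limma adjusted p = 1.58e-04) and had changes of -0.24 in hippocampus and 0.12 in striatum that did not pass, and the effect differed between the regions (adjusted p = 2.65e-04). Stat3, a transcription factor of reactive astrocytes, rose in cortex (0.39, SE 0.06, adjusted p = 0.00104) and striatum (0.21, SE 0.04, adjusted p = 6.31e-04). Vim rose in striatum (0.13, SE 0.03, adjusted p = 0.00908).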
